A study of Mus musculus with 12 samples.

Results

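The 41 genes described here encode synaptic adhesion and organizer proteins of the mouse. They were chosen by symbol from a table of 56734 genes measured in projection neurons of the cerebral cortex. Earlier results of these data were known at that point, so counts set beside all genes are not those of a list picked blind. The list holds neurexins, neuroligins, LRRTM, SLITRK and SALM (Lrfn) proteins, FLRTs, latrophilins, teneurins, cerebellins, neuronal pentraxins, SynCAMs (Cadm) and the receptor phosphatases that several of them bind. All 41 symbols were found in the table, and all 41 passed the filter of at least 1 TPM (transcripts per 1000000) in at least 3 libraries. In 38 of them every library reached 1 TPM.

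Neurons were wild type and came from 4 groups with 3 libraries each. The groups were postnatal day 7 (P7) layer 2, P7 layer 3, postnatal day 3 (P3) layer 2 and P3 layer 3. In all groups the cells carried mCherry, a red fluorescent protein delivered by electroporation in utero, and were sorted by fluorescence, with 2 to 3 pups pooled per library. The depth of each library is unknown because TPM keeps no read depth. Libraries are called by the replicate number in their label. No aim beyond profiling is stated, so the comparisons were P7 against P3 within each layer, layer 2 against layer 3 at each age, and the difference between the age changes of the layers.

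Synaptic organizers are membrane or secreted proteins that meet across the synaptic cleft and recruit release machinery on one side and receptors on the other. Neurexins and the receptor phosphatases PTPδ (Ptprd) and PTPσ (Ptprs) sit mainly on the axon, and neuroligins, LRRTMs, SLITRKs, SALMs and Il1rapl1 sit mainly on the dendrite as their partners. Teneurins and FLRTs bind latrophilins, and secreted cerebellins and pentraxins bridge the cleft or gather glutamate receptors. In rodent cortex these early postnatal days come before the main wave of synapse formation.

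The labels were checked against marker genes. The upper-layer marker Cux1 ranged from 105 to 256 TPM over the 12 libraries. Rorb, enriched in layer 4 and lower layer 3, had 6.51, 5.31 and 7.01 TPM in P7 layer 2, against 46.0, 55.4 and 80.6 TPM in P7 layer 3, and 9.91, 5.96 and 6.33 TPM in P3 layer 2, against 26.9, 60.9 and 80.4 TPM in P3 layer 3. Transcripts of other cell types were present too, with no listed marker at 0 in all libraries. Aqp4 of astrocytes ranged from 1.76 to 85.8 TPM and Gad1 of interneurons from 2.76 to 23.2 TPM. Each library held 15349 to 16948 genes at 1 TPM or more. Summed marker levels set 3 libraries apart: P7 layer 3 library 1 had the most oligodendrocyte lineage transcript (1082 TPM), P3 layer 2 library 2 the most microglial (2498 TPM) and P3 layer 3 library 1 the most vascular and meningeal (119 TPM). P7 layer 2 library 2 had the highest astrocyte sum, at 1590 TPM, against 535 and 788 TPM in the other P7 layer 2 libraries. Without it, 21 of the 41 genes were called with age in layer 2, and 21.8% of all genes. The Y-linked Eif2s3y was listed at 0, 0 and 8.35 TPM in P3 layer 2, against 32.7, 23.7 and 98.9 TPM in P3 layer 3. It had 28.4, 15.2 and 73.5 TPM in P7 layer 2 and 16.2, 10.4 and 33.9 TPM in P7 layer 3. This transcript was thus unequal between the layers at P3 and between the ages in layer 2. The part of Y-linked transcripts in the results was not tested. The list holds 5 X-linked genes, Nlgn3, Slitrk2, Slitrk4, Il1rapl1 and Tenm1. None of them was called between the layers at P3, where 9.05% of all genes were, so a list this short shows little. Nlgn3, Slitrk4 and Il1rapl1 were called higher at P7 in both layers, where 15.0% (layer 2) and 14.4% (layer 3) of all genes were.

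The genes spanned more than 2 orders of magnitude in level. Cadm1, an immunoglobulin adhesion protein, had the highest mean over the 12 libraries (231 TPM), followed by Cadm2 (127 TPM), Ptprs (123 TPM), Nptxr (106 TPM) and Lrrtm1 (91.5 TPM). The pentraxin Nptx1 had the lowest (1.505 TPM). The 41 genes together held 1802 ± 105 TPM in P7 layer 2, 1945 ± 67.0 TPM in P7 layer 3, 997 ± 144 TPM in P3 layer 2 and 1202 ± 169 TPM in P3 layer 3 (mean ± SD, n = 3 each). No P3 library reached the sum of any P7 library. In bulk RNA of this kind, fewer cells of a type and less RNA per cell cannot be told apart.

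**Figure D1:**
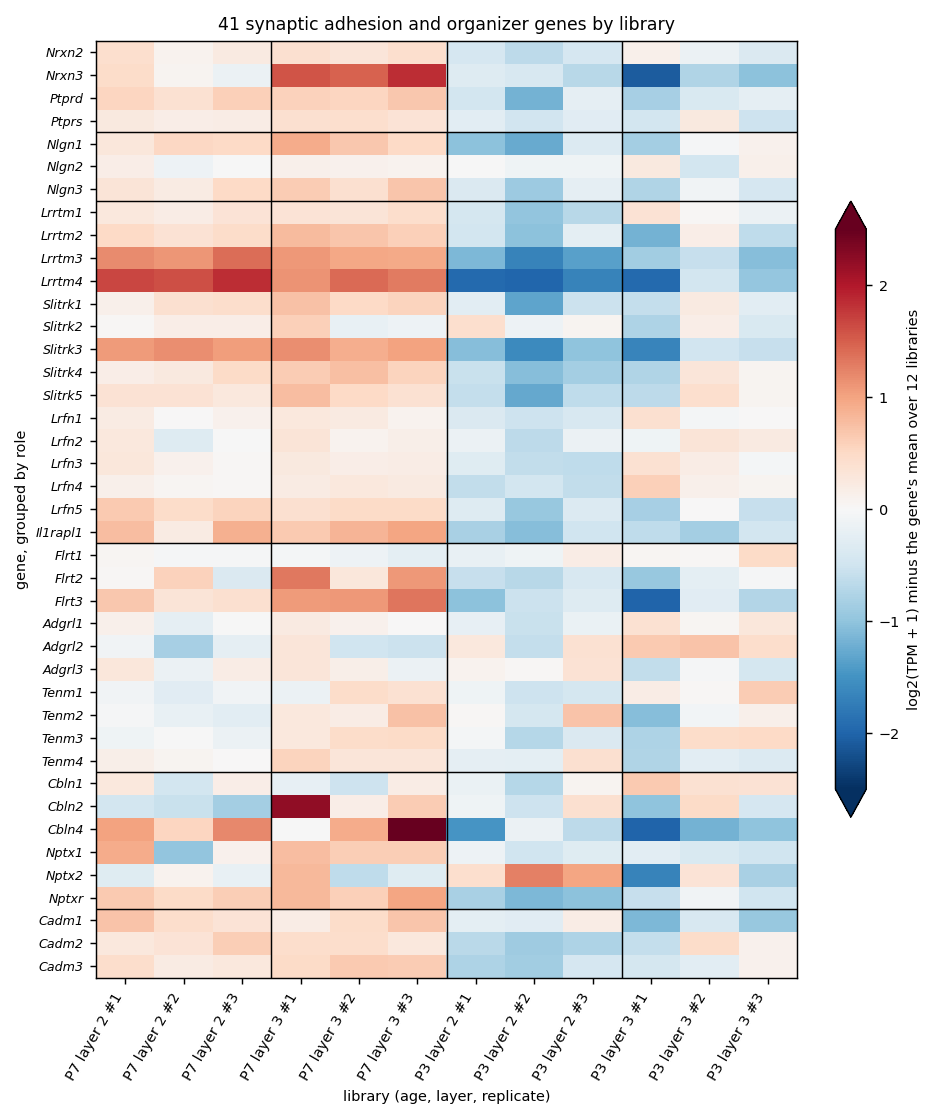
Level of each of the 41 genes (rows, grouped by role) in each of the 12 libraries (columns), as log2(TPM + 1) minus the mean of that gene over the libraries; red is above and blue below that mean. The P7 libraries, on the left, are redder for most rows, and Lrrtm4, Lrrtm3 and Slitrk3 show strong contrasts between the ages.

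Sequences upstream of the annotated starts are shown for the genes on which the age comparison turns, Lrrtm4, Lrrtm3, Slitrk3 and Nrxn3. They are the 250 bases before each start that RefSeq lists on GRCm38.p6, written 5′ to 3′ on the strand of the gene. The submitters' processing notes name GRCm39, so these positions belong to the RefSeq table and not to the expression files. Windows were available for 27 of the 41 genes, 36 windows in all. Capitals mark matches, on either strand, to the E-box CANNTG, to a TATA box read as TATAAA, to a GC box read as GGGCGG and to a cyclic AMP response element (CRE) read as TGACGTCA. On the opposite strand the second of these reads TTTATA. No capital stretch below holds matches to more than one of these motifs.
Lrrtm4, listed start 1, chr6:80018627-80018876, plus strand: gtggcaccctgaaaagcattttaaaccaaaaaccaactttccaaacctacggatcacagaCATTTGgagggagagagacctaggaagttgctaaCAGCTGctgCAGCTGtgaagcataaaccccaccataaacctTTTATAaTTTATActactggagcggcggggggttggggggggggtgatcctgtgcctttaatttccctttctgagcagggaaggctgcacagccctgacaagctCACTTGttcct
Lrrtm4, listed start 2, chr6:80019393-80019642, plus strand: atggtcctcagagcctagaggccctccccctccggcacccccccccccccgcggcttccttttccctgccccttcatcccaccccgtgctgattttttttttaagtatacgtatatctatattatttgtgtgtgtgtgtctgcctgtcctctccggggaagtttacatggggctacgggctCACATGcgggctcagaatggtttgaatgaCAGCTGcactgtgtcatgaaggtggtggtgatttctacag
Lrrtm3, listed start 1, chr10:64090256-64090505, minus strand: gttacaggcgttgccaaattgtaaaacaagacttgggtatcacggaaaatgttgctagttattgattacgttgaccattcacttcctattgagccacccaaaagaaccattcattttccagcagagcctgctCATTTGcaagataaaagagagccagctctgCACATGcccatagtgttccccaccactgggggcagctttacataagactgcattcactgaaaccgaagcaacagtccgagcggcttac
Slitrk3, listed start 1, chr3:73057067-73057316, minus strand: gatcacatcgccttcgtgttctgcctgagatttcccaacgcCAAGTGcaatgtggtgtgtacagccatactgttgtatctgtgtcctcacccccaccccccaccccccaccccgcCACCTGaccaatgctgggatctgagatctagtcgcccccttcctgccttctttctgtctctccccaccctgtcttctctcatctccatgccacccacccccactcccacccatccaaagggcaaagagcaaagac
Nrxn3, listed start 1, chr12:88794254-88794503, plus strand: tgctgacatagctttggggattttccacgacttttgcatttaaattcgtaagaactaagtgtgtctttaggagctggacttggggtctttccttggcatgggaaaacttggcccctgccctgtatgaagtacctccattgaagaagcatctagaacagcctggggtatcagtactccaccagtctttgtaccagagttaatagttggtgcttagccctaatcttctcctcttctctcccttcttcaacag
Nrxn3, listed start 2, chr12:88953140-88953389, plus strand: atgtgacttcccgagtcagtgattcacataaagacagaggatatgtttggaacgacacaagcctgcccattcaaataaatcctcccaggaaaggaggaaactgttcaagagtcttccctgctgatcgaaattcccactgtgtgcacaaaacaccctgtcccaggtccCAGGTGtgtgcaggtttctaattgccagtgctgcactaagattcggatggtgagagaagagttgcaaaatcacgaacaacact
Nrxn3, listed start 3, chr12:89812233-89812482, plus strand: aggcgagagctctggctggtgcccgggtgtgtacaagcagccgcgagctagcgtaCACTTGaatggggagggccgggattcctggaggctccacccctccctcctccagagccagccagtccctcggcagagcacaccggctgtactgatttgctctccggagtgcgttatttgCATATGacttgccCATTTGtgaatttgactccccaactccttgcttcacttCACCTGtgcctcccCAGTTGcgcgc
The first Lrrtm4 window holds 4 E-boxes and 2 TATA boxes, and the second, 766 bases downstream, holds 2 E-boxes. The Lrrtm3 and Slitrk3 windows hold 2 E-boxes each. The Nrxn3 windows hold 0, 1 and 5 E-boxes, and the third lies 1017979 bases from the first. Neurexin genes are known for an upstream promoter of the long alpha form and an internal one of the short beta form, and gene-level TPM cannot separate transcripts from these starts. Over the list, 69.4% of the 36 windows held an E-box, 30.6% a GC box, 11.1% a TATA box and 5.56% a CRE. Of all 32851 windows in the table, 66.2% held an E-box, 32.7% a GC box, 12.4% a TATA box and 1.55% a CRE. The 2 windows with a CRE belonged to Slitrk2 and Tenm3.

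At P7, both receptor phosphatases and 2 of 3 neuroligins stood above their P3 levels in layer 2 and in layer 3, and so did 12 of 14 leucine-rich repeat organizers in layer 2 and 6 of 14 in layer 3. Of the 10 FLRTs, latrophilins and teneurins, 1 was higher in layer 2 and 3 in layer 3. In layer 2, 23 of the 41 genes were higher at P7 and 0 were lower, with limma at an adjusted p under 0.05. Of all 17606 genes tested, 15.0% were called higher and 9.33% lower. The median log2 fold change of the 41 genes was 0.63, and that of all genes tested was 0.03. In layer 3, 20 of the 41 were higher and 1 was lower, where 14.4% of all genes were called higher and 6.42% lower. The median there was 0.78 for the 41 genes and 0.17 for all genes tested. Median-ratio scaling brought the median of all genes to 0.01, and the share of higher genes among all genes called to 49.9%, against 69.2% on the TPM as deposited. It left 18 of the 41 genes higher and 1 lower. A gene higher by under about 0.17 on the log2 scale in layer 3 would therefore not stand above the genes at large.

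The 2 age comparisons contrast separate libraries, but both take their spread from a fit to all libraries, so their calls are not independent. Called higher in both were 16 genes. They make up 69.6% of the layer 2 calls and 80% of the layer 3 calls. For all genes tested, the shared calls made up 59.2% of the layer 2 calls and 61.6% of the layer 3 calls. Called in layer 2 and not in layer 3 were 7 genes, Lrrtm1, Slitrk1, Slitrk5, Lrfn1, Lrfn3, Lrfn4 and Cadm2. Called higher in layer 3 and not in layer 2 were 4 genes, Nrxn3, Flrt2, Tenm4 and Cbln4. The difference between the age changes passed the test for none of the 41 genes with limma (0.182% of all genes were called), so these lists do not show that the layers differ. At an unadjusted p under 0.05, 13 of the 41 genes differed in age change, against 11.4% of all genes. Median-ratio scaling moved the median of this difference over all genes to 0.03, against -0.09 on the TPM as deposited.

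Libraries did not overlap between the ages, with every P7 library above every P3 library, for 26 genes in layer 2 (26.3% of all genes) and for 23 in layer 3 (23.2% of all genes). The reverse order held for 1 gene in layer 2, Nptx2 (20.3% of all genes), and for 3 genes in layer 3, Flrt1, Adgrl2 and Cbln1 (11.3% of all genes). With 3 libraries on each side, the smallest p of an exact permutation test is 0.1, so the calls rest on the spread that limma shares across genes. Each p-value measures the spread between libraries from separate pools of pups.

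**Figure D2:**
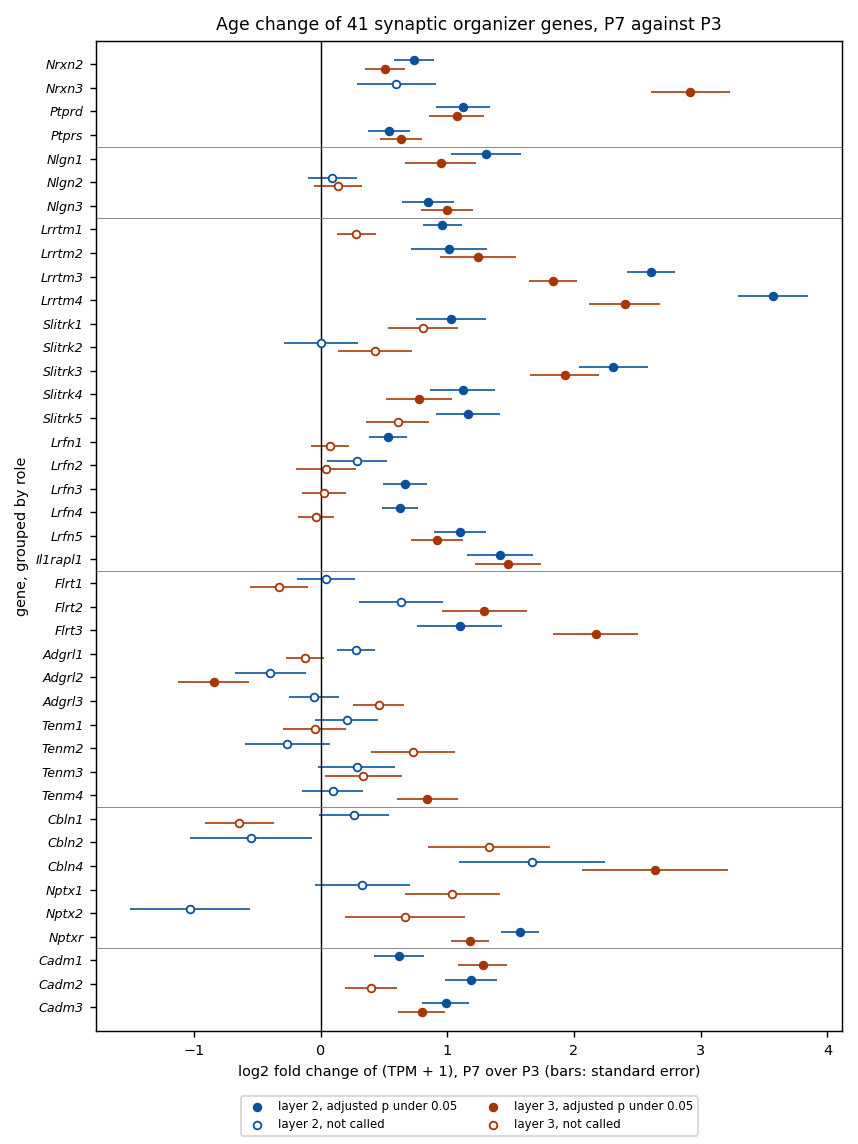
Fitted log2 fold change of TPM + 1, P7 over P3, for each of the 41 genes by role, with bars of 1 standard error; blue is layer 2 and brown is layer 3, and filled points passed an adjusted p of 0.05. Lrrtm4 lies farthest to the right in layer 2 (3.57) and Nrxn3 in layer 3 (2.92), and Adgrl2 in layer 3 (-0.84) is the filled point left of 0.

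Marker genes of several cell types also differed with age, with most pan-neuronal markers higher and cell cycle markers lower at P7 in layer 2. Of 8 pan-neuronal genes, 6 were called higher at P7 in layer 2 (median 0.87 on the log2 scale), and their summed level was 5163 to 5889 TPM at P7 and 2882 to 3888 TPM at P3. In layer 3, 3 of the 8 were higher and 1 was lower (median 0.33), with sums of 6074 to 6780 TPM at P7 and 4521 to 5073 TPM at P3. All 8 cell cycle genes were lower at P7 in layer 2 (median -1.55), with sums of 157 to 220.4 TPM at P7 and 395 to 486 TPM at P3. In layer 2, 3 of 7 radial glia and progenitor genes were lower at P7, with sums of 962 to 2670.4 TPM at P7 and 4032 to 6804 TPM at P3. Of 10 projection neuron genes, 3 were higher and 2 lower at P7 in layer 2 (median 0.05), and 2 were higher and 6 lower in layer 3 (median -0.65). In layer 3 the medians of the projection neuron and pan-neuronal lists thus had opposite signs. In layer 2, 2 of 10 interneuron genes were lower at P7, with sums of 91.5 to 126 TPM at P7 and 205 to 279 TPM at P3. Of 12 astrocyte genes, 1 was higher at P7 in layer 2 and 3 in layer 3. Astrocyte sums were 535 to 1590 TPM in P7 layer 2, 277 to 1143 TPM in P7 layer 3, 760 to 851 TPM in P3 layer 2 and 176 to 462 TPM in P3 layer 3. With the pan-neuronal score as a covariate, 0 of the 41 genes and 21 of 17606 were called between the ages in layer 2, and 0 of the 41 and 154 of 17606 in layer 3. At an unadjusted p under 0.05 these fits gave 6 of the 41 genes in layer 2 and 9 in layer 3. With the astrocyte score instead, 25 of the 41 were called in layer 2, where 28% of all genes were, and 14 in layer 3, where 13% were. The pan-neuronal sums did not overlap between the ages in either layer. The score, however, was the mean log2(TPM + 1) of these genes and not their sum, and its overlap was not examined. How far the fits with that score separate it from age is therefore not known. What part the neuronal share of each sample has in the age changes was not tested beyond these values.

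Neurexins and receptor phosphatases, the presynaptic hubs, were higher at P7 for 3 of 4 genes in layer 2 and 4 of 4 in layer 3. Nrxn2 is a neurexin that binds neuroligins and LRRTMs. At P7, Nrxn2 had 43.8, 34.5 and 38.3 TPM in layer 2 and 43.4, 40.3 and 44.1 TPM in layer 3. At P3, Nrxn2 had 24.1, 20.2 and 24.1 TPM in layer 2 and 35.6, 29.1 and 25.1 TPM in layer 3. All P7 libraries lay above those of P3 within a layer, by modest amounts (log2 fold change 0.74 ± 0.16, adjusted p = 0.00419 in layer 2 and 0.51 ± 0.16, adjusted p = 0.0370 in layer 3; values after ± are standard errors for log2 fold changes on the log2(TPM + 1) scale). The layer 3 call was lost with median-ratio scaling (adjusted p = 0.259) and with quantile normalization (0.276). It was also lost on omitting P7 layer 2 library 3, any P7 layer 3 library or P3 layer 3 library 3 (adjusted p 0.0539 to 0.145). Ptprd encodes PTPδ, the axonal partner of Slitrk3 and Il1rapl1. At P7, Ptprd had 102, 91.9 and 107 TPM in layer 2 and 106, 102 and 112 TPM in layer 3. At P3, Ptprd had 50.97, 30.3 and 60.3 TPM in layer 2 and 38.9, 53.7 and 59.7 TPM in layer 3. Every P7 library, at 91.9 TPM or more, exceeded every P3 library, at 60.3 TPM or less (1.13 ± 0.22, adjusted p = 0.00198 in layer 2 and 1.08 ± 0.22, adjusted p = 0.00363 in layer 3). Both Ptprd calls held whichever library was left out.

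Ptprs encodes PTPσ, a phosphatase that also binds heparan sulfate proteoglycans. At P7, Ptprs had 142, 134 and 135 TPM in layer 2 and 158, 159.7 and 151 TPM in layer 3. At P3, Ptprs had 99.4, 84.7 and 97.4 TPM in layer 2 and 86.4, 141 and 83.3 TPM in layer 3. The ages did not overlap in either layer, and P3 layer 3 library 2, at 141 TPM, came close to the P7 libraries. The fold changes were small (0.54 ± 0.17, adjusted p = 0.0284 in layer 2 and 0.63 ± 0.17, adjusted p = 0.0155 in layer 3). The layer 2 call was lost on omitting any P7 layer 2 library or P3 layer 2 library 2 or 3 (adjusted p 0.0561 to 0.106). The layer 3 call was lost on omitting P3 layer 3 library 1 or 3 (adjusted p 0.0664 to 0.0732).

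Nrxn3, the other neurexin on the list, was called in layer 3. At P7, Nrxn3 had 11.1, 8.31 and 6.94 TPM in layer 2 and 25.4, 23.6 and 30.7 TPM in layer 3. At P3, Nrxn3 had 6.06, 5.70 and 4.44 TPM in layer 2 and 1.08, 4.25 and 3.34 TPM in layer 3. The 3 P7 layer 3 libraries stood above all 9 others, and P7 layer 2 libraries lay just above those of P3. In layer 3 the mean was 9.17-fold higher at P7 (log2 fold change 2.92 ± 0.31, adjusted p = 4.60e-05), a call that held whichever library was left out. In layer 2 the log2 fold change was 0.60 ± 0.31, adjusted p = 0.185. Layer 2 minus layer 3, the age changes differed by -2.32 ± 0.44, and the p of this difference was 0.000141 before and 0.0621 after adjustment over all genes. It passed the threshold with a pseudocount of 5 (adjusted p = 0.0276), with median-ratio scaling (0.0461), with array weights (0.00384) and without P3 layer 3 library 2 (0.0230). It did not pass under the other settings, where adjusted p reached 0.205 without P7 layer 2 library 3.

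As a share of the TPM of Nrxn2 and Nrxn3 together, Nrxn3 made up 18.3 ± 2.62% in P7 layer 2, 38.3 ± 2.38% in P7 layer 3, 19.2 ± 3.33% in P3 layer 2 and 9.15 ± 5.41% in P3 layer 3 (mean ± SD, n = 3 each). Nrxn2 was the larger of the pair in every group. The share was highest in P7 layer 3 and lowest in P3 layer 3.

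Neuroligins are the classical dendritic partners of neurexins, and 2 of 3 were higher at P7 in each layer. Nlgn1 acts mainly at excitatory synapses. At P7, Nlgn1 had 17.6, 20.8 and 20.5 TPM in layer 2 and 28.2, 23.2 and 20.5 TPM in layer 3. At P3, Nlgn1 had 6.47, 5.40 and 11.1 TPM in layer 2 and 7.53, 14.01 and 15.5 TPM in layer 3. Within each layer the ages did not overlap (1.31 ± 0.28, adjusted p = 0.00415 in layer 2 and 0.95 ± 0.28, adjusted p = 0.0285 in layer 3). In layer 3 the call ended with quantile normalization (adjusted p = 0.0793) and on omitting P7 layer 3 library 1 or 2 or P3 layer 3 library 1 (adjusted p 0.0650 to 0.120). Nlgn3 acts at excitatory and inhibitory synapses. At P7, Nlgn3 had 45.5, 41.6 and 51.4 TPM in layer 2 and 56.5, 47.7 and 59.2 TPM in layer 3. At P3, Nlgn3 had 27.7, 18.7 and 30.5 TPM in layer 2 and 20.9, 33.8 and 26.7 TPM in layer 3. P7 libraries exceeded all P3 libraries (0.85 ± 0.20, adjusted p = 0.00839 in layer 2 and 1.00 ± 0.20, adjusted p = 0.00410 in layer 3), and neither call depended on a single library. Nlgn2, which acts at inhibitory synapses, had group means of 17.1 to 19.5 TPM and log2 fold changes of 0.09 ± 0.19 in layer 2 and 0.14 ± 0.19 in layer 3, and was not called in any comparison. The neuroligin sum was 84.1 ± 5.61 TPM in P7 layer 2, 97.9 ± 7.07 TPM in P7 layer 3, 50.4 ± 8.83 TPM in P3 layer 2 and 57.5 ± 6.61 TPM in P3 layer 3. Of that sum Nlgn2 made up 21.8 ± 2.33%, 20.0 ± 1.41%, 34.6 ± 6.15% and 32.1 ± 11.0% in the same groups.

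The leucine-rich repeat organizers of the dendrite were the largest set on the list, with 12 of 14 higher at P7 in layer 2 and 6 of 14 in layer 3. Their median log2 fold change was 1.02 in layer 2 and 0.69 in layer 3. Lrrtm4 had the largest fold change among them in each layer. Lrrtm4 binds neurexins and heparan sulfate glypicans and organizes excitatory synapses. At P7, Lrrtm4 had 85.8, 83.0 and 97.3 TPM in layer 2 and 59.1, 71.8 and 66.7 TPM in layer 3. At P3, Lrrtm4 had 6.11, 5.95 and 7.65 TPM in layer 2 and 6.15, 19.0 and 13.0 TPM in layer 3. The lowest P7 library had 59.1 TPM and the highest P3 library 19.0 TPM. The mean at P7 was 13.5-fold that at P3 in layer 2 (log2 fold change 3.57 ± 0.28, adjusted p = 2.08e-06) and 5.17-fold in layer 3 (2.40 ± 0.28, adjusted p = 9.10e-05).

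Lrrtm3 is a close relative of Lrrtm4. At P7, Lrrtm3 had 41.5, 39.0 and 47.9 TPM in layer 2 and 38.3, 35.3 and 35.1 TPM in layer 3. At P3, Lrrtm3 had 7.57, 4.86 and 6.27 TPM in layer 2 and 9.18, 11.4 and 7.92 TPM in layer 3. The lowest P7 library had 35.1 TPM and the highest P3 library 11.4 TPM (2.61 ± 0.19, adjusted p = 1.13e-06 in layer 2 and 1.84 ± 0.19, adjusted p = 3.26e-05 in layer 3). The calls of both genes in both layers held whichever library was left out. The layer order of Lrrtm3 differed between the ages. At P7 every layer 2 library of Lrrtm3 lay above every layer 3 library, and at P3 every layer 2 library lay below. The difference between the age changes was 0.77 ± 0.27, adjusted p = 0.276 for Lrrtm3 and 1.17 ± 0.40, adjusted p = 0.262 for Lrrtm4.

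Lrrtm1 is the most abundant of the family and is known for its role at excitatory synapses. At P7, Lrrtm1 had 105, 99.2 and 111 TPM in layer 2 and 112, 109 and 119 TPM in layer 3. At P3, Lrrtm1 had 64.7, 43.9 and 53.9 TPM in layer 2 and 112, 89.9 and 78.7 TPM in layer 3. The 3 P3 layer 2 libraries stood below all 9 others, and in layer 3 the ages overlapped. The age change passed the test in layer 2 (0.96 ± 0.15, adjusted p = 0.000603) and not in layer 3 (0.28 ± 0.15, adjusted p = 0.217), and the difference between them did not pass (0.68 ± 0.22, adjusted p = 0.237). Lrrtm2 binds neurexins with high affinity at excitatory synapses. At P7, Lrrtm2 had 15.8, 14.3 and 15.3 TPM in layer 2 and 19.5, 18.1 and 16.9 TPM in layer 3. At P3, Lrrtm2 had 7.68, 4.85 and 9.05 TPM in layer 2 and 4.23, 12.3 and 6.63 TPM in layer 3. The ages did not overlap in either layer (1.01 ± 0.30, adjusted p = 0.0243 in layer 2 and 1.24 ± 0.30, adjusted p = 0.0102 in layer 3). Its call in layer 2 was lost on omitting P7 layer 2 library 1 or 3 or P3 layer 2 library 2 (adjusted p 0.0701 to 0.111). The layer 3 call held against each single library but was lost without the 3 libraries that stood apart (adjusted p = 0.0573).

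The make-up of the LRRTM family differed between the ages. Its summed level was 252 ± 18.5 TPM in P7 layer 2, 233 ± 4.56 TPM in P7 layer 3, 74.2 ± 13.4 TPM in P3 layer 2 and 124 ± 15.0 TPM in P3 layer 3 (mean ± SD, n = 3 each). Lrrtm1 made up 41.8 ± 0.716%, 48.4 ± 1.73%, 73.0 ± 2.60% and 75.7 ± 8.81% of it in these groups. Lrrtm4 made up 35.2 ± 0.588%, 28.2 ± 2.38%, 9.01 ± 1.65% and 10.4 ± 5.10%, and Lrrtm3 17.0 ± 0.561%, 15.6 ± 1.07%, 8.37 ± 0.367% and 7.68 ± 0.856%. Lrrtm1 was thus the predominant transcript at P3, and at P7 Lrrtm3 and Lrrtm4 together exceeded it in layer 2 and came close to it in layer 3. The 3 genes Lrrtm1, Lrrtm2 and Lrrtm3 lie within the alpha-catenin genes Ctnna2, Ctnna1 and Ctnna3 on the opposite strand, in GENCODE vM21.

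**Figure D3:**
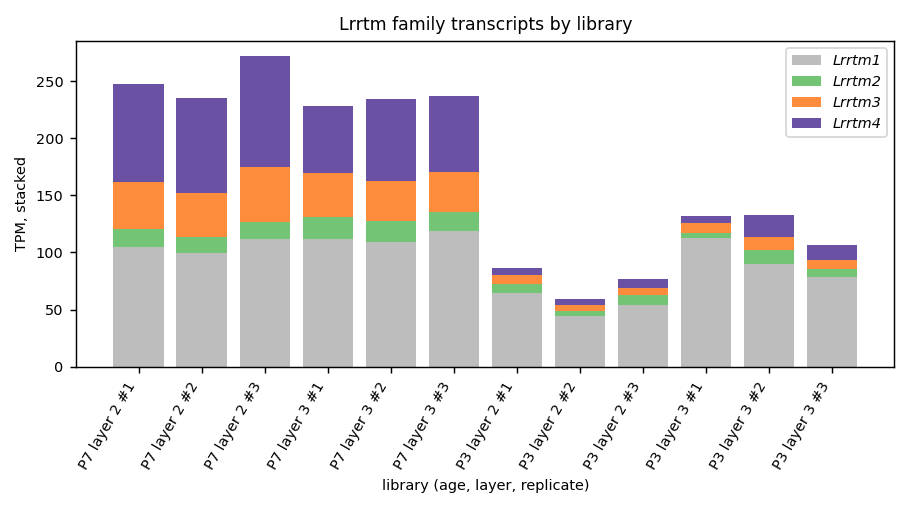
TPM of Lrrtm1 (grey), Lrrtm2 (green), Lrrtm3 (orange) and Lrrtm4 (purple), stacked, in each of the 12 libraries. The purple and orange parts are large in the 6 P7 libraries on the left and thin in the 6 P3 libraries on the right, and the grey Lrrtm1 part is lowest in P3 layer 2.

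Among SLITRK genes, Slitrk3 changed most. It is known for building inhibitory synapses through PTPδ. At P7, Slitrk3 had 36.9, 39.8 and 36.4 TPM in layer 2 and 39.7, 33.1 and 35.5 TPM in layer 3. At P3, Slitrk3 had 7.70, 5.04 and 8.05 TPM in layer 2 and 4.80, 12.1 and 11.1 TPM in layer 3. The lowest P7 library had 33.1 TPM and the highest P3 library 12.1 TPM (2.31 ± 0.27, adjusted p = 5.67e-05 in layer 2 and 1.93 ± 0.27, adjusted p = 0.000355 in layer 3), and neither call depended on one library. Its share of the TPM of the 5 SLITRK genes was 33.4 ± 1.08% in P7 layer 2, 28.7 ± 1.502% in P7 layer 3, 15.8 ± 1.19% in P3 layer 2 and 13.7 ± 2.09% in P3 layer 3. Slitrk1 promotes excitatory synapses in cultured neurons. At P7, Slitrk1 had 10.7, 13.2 and 13.5 TPM in layer 2 and 16.7, 14.2 and 14.8 TPM in layer 3. At P3, Slitrk1 had 7.88, 3.33 and 6.40 TPM in layer 2 and 6.13, 11.5 and 7.93 TPM in layer 3. The ages overlapped in neither layer, with P3 layer 3 library 2 the closest to P7. The change was called in layer 2 (1.03 ± 0.28, adjusted p = 0.0159) and missed the threshold in layer 3 (0.81 ± 0.28, adjusted p = 0.0555). The call in layer 2 ended on omitting P7 layer 2 library 3 or P3 layer 2 library 2 (adjusted p 0.0601 to 0.0748).

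Slitrk4 and Slitrk5 are relatives of Slitrk1. At P7, Slitrk4 had 13.7, 14.7 and 17.5 TPM in layer 2 and 19.6, 21.3 and 18.5 TPM in layer 3. At P3, Slitrk4 had 8.01, 5.27 and 6.32 TPM in layer 2 and 6.80, 15.3 and 12.9 TPM in layer 3. The P7 range lay above the P3 range in each layer (1.12 ± 0.26, adjusted p = 0.00645 in layer 2 and 0.78 ± 0.26, adjusted p = 0.0472 in layer 3). The layer 3 call was fragile, being lost with median-ratio scaling (adjusted p = 0.0810), with quantile normalization (0.146), with a replicate block (0.0642) and on omitting any 1 library other than P3 layer 2 library 2 or P3 layer 3 library 2 (adjusted p 0.0511 to 0.180). At P7, Slitrk5 had 41.9, 42.2 and 39.3 TPM in layer 2 and 56.4, 46.4 and 42.9 TPM in layer 3. At P3, Slitrk5 had 21.2, 12.8 and 20.7 TPM in layer 2 and 20.4, 43.9 and 34.0 TPM in layer 3. In layer 2 the ages were well apart (1.16 ± 0.25, adjusted p = 0.00420), and in layer 3 they overlapped through P3 library 2 (0.61 ± 0.25, adjusted p = 0.1002). Slitrk2 was not called anywhere. Its libraries ranged from 2.95 to 9.20 TPM, with log2 fold changes of 0.00 ± 0.29 in layer 2 and 0.43 ± 0.29 in layer 3.

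The SALM genes Lrfn1 to Lrfn5 encode dendritic adhesion proteins, and Lrfn1, Lrfn2 and Lrfn4 carry a tail that binds PSD-95. Lrfn5, a partner of the receptor phosphatases, was the SALM called in both layers. At P7, Lrfn5 had 97.2, 84.2 and 91.2 TPM in layer 2 and 81.3, 85.8 and 85.4 TPM in layer 3. At P3, Lrfn5 had 48.5, 31.2 and 48.0 TPM in layer 2 and 33.9, 61.8 and 40.8 TPM in layer 3. The lowest P7 library had 81.3 TPM and the highest P3 library 61.8 TPM (1.10 ± 0.21, adjusted p = 0.00169 in layer 2 and 0.92 ± 0.21, adjusted p = 0.00725 in layer 3). Lrfn4 promotes excitatory synapses through the same phosphatases. At P7, Lrfn4 had 56.6, 53.9 and 53.2 TPM in layer 2 and 60.01, 62.3 and 60.9 TPM in layer 3. At P3, Lrfn4 had 33.5, 37.8 and 33.6 TPM in layer 2 and 78.7, 56.8 and 54.7 TPM in layer 3. The P3 layer 2 libraries lay below all 9 others, and the layer 3 libraries of the 2 ages overlapped (0.63 ± 0.14, adjusted p = 0.00584 in layer 2 and -0.03 ± 0.14, adjusted p = 0.891 in layer 3).

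Lrfn3 and Lrfn1 were also lowest in P3 layer 2. At P7, Lrfn3 had 20.3, 17.9 and 16.9 TPM in layer 2 and 19.6, 18.6 and 19.0 TPM in layer 3. At P3, Lrfn3 had 13.1, 10.3 and 10.2 TPM in layer 2 and 21.8, 18.9 and 15.8 TPM in layer 3. The 3 P3 layer 2 libraries lay below all 9 others and the layer 3 ages overlapped (0.67 ± 0.18, adjusted p = 0.0136 in layer 2 and 0.03 ± 0.18, adjusted p = 0.938 in layer 3). The layer 2 call of Lrfn3 was lost on omitting P7 layer 2 library 1 or P3 layer 2 library 2 or 3 (adjusted p 0.0514 to 0.0657). At P7, Lrfn1 had 38.0, 33.0 and 35.2 TPM in layer 2 and 39.7, 38.5 and 34.7 TPM in layer 3. At P3, Lrfn1 had 25.4, 22.6 and 24.6 TPM in layer 2 and 43.5, 31.4 and 32.8 TPM in layer 3. Its 3 P3 layer 2 libraries likewise lay below all 9 others. The age change was 0.53 ± 0.15, adjusted p = 0.0199 in layer 2 and 0.08 ± 0.15, adjusted p = 0.760 in layer 3. The layer 2 call of Lrfn1 ended with median-ratio scaling (adjusted p = 0.0701), with quantile normalization (0.112) and on omitting P7 layer 2 library 1 or 3 or P3 layer 2 library 2 (adjusted p 0.0588 to 0.0834). Lrfn2 had group means of 5.85 to 8.51 TPM and passed no test. Il1rapl1, the X-linked intellectual disability gene whose product binds PTPδ, was low but separated by age. At P7, Il1rapl1 had 7.56, 4.76 and 8.29 TPM in layer 2 and 6.94, 8.09 and 8.91 TPM in layer 3. At P3, Il1rapl1 had 1.86, 1.39 and 2.54 TPM in layer 2 and 2.22, 1.81 and 2.64 TPM in layer 3. Every P7 library exceeded every P3 library (1.41 ± 0.26, adjusted p = 0.00156 in layer 2 and 1.48 ± 0.26, adjusted p = 0.00158 in layer 3), and both calls held whichever library was left out.

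FLRTs, latrophilins and teneurins form a second set of complexes that guide cells and axons before they act at synapses. Here 1 of 10 was higher at P7 in layer 2, where 15.0% of all genes were. In layer 3, 3 were higher and 1 was lower, where 14.4% and 6.42% of all genes were. Flrt3 binds latrophilins and Unc5 receptors. At P7, Flrt3 had 32.3, 25.3 and 26.7 TPM in layer 2 and 42.9, 43.1 and 51.7 TPM in layer 3. At P3, Flrt3 had 9.30, 13.3 and 15.7 TPM in layer 2 and 4.23, 16.1 and 11.5 TPM in layer 3. P7 exceeded P3 in all libraries of both layers, with log2 fold changes of 1.10 ± 0.34, adjusted p = 0.0296 in layer 2 and 2.17 ± 0.34, adjusted p = 0.000672 in layer 3, and the difference between the changes did not pass (-1.07 ± 0.48, adjusted p = 0.416). The layer 3 call held whichever library was left out. The layer 2 call ended on omitting P7 layer 2 library 1 or 3 or P3 layer 2 library 1 or 2 (adjusted p 0.0668 to 0.105). Flrt2, which also binds Unc5 receptors, had 15.4, 7.02 and 12.9 TPM in P7 layer 3, against 2.45, 4.60 and 5.45 TPM in P3 layer 3. The ages did not overlap in layer 3 (1.29 ± 0.33, adjusted p = 0.0150), but the call was lost on omitting P7 layer 3 library 1 or 3 or P3 layer 3 library 1 (adjusted p 0.0539 to 0.0706). In layer 2 it had 5.72, 8.81 and 4.13 TPM in P7 layer 2, against 3.45, 3.07 and 3.99 TPM in P3 layer 2, a change that did not pass (0.63 ± 0.33, adjusted p = 0.189).

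Adgrl2, a latrophilin, was the one gene of the list lower at P7. At P7, Adgrl2 had 58.3, 34.1 and 53.1 TPM in layer 2 and 76.8, 43.8 and 42.2 TPM in layer 3. At P3, Adgrl2 had 74.5, 40.7 and 80.6 TPM in layer 2 and 98.1, 101 and 84.7 TPM in layer 3. In layer 3 the ages did not overlap, although P7 library 1, at 76.8 TPM, was near the P3 range (-0.84 ± 0.28, adjusted p = 0.0473). In layer 2 they overlapped (-0.40 ± 0.28, adjusted p = 0.331). Its call in layer 3 ended on omitting any 1 library other than P7 layer 2 library 2, P7 layer 3 library 1 or P3 layer 2 library 2 or 3 (adjusted p 0.0522 to 0.148). Tenm4, a teneurin and latrophilin ligand, was higher at P7 in layer 3. At P7, Tenm4 had 6.95, 6.55 and 6.25 TPM in layer 2 and 9.47, 7.86 and 7.85 TPM in layer 3. At P3, Tenm4 had 5.16, 5.08 and 8.495 TPM in layer 2 and 3.25, 4.94 and 4.62 TPM in layer 3. The layer 3 ages did not overlap (0.84 ± 0.24, adjusted p = 0.0244), and the layer 2 ages did (0.10 ± 0.24, adjusted p = 0.806). The call in layer 3 ended with quantile normalization (adjusted p = 0.0898) and on omitting any P7 layer 3 library or P3 layer 3 library 1 (adjusted p 0.0508 to 0.0926).

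The other 6 genes of these complexes were not called with age. Group means ran over 3.68 to 4.91 TPM for Flrt1 and 16.4 to 23.6 TPM for Adgrl3. They ran over 4.96 to 8.32 TPM for Tenm1, 9.31 to 15.3 TPM for Tenm2 and 7.74 to 13.7 TPM for Tenm3. Adgrl1, the most abundant of them, is described with the layer comparison. Adgrl2 made up 36.8 ± 3.58% of latrophilin TPM in P7 layer 2, 37.5 ± 6.12% in P7 layer 3, 46.6 ± 5.94% in P3 layer 2 and 51.9 ± 3.11% in P3 layer 3.

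Of the secreted organizers and their receptor, 1 of 6 was higher at P7 in layer 2 and 2 of 6 in layer 3. Of all genes, 15.0% were called higher in layer 2 and 14.4% in layer 3. Nptxr is a membrane-bound pentraxin that gathers AMPA receptors at synapses. At P7, Nptxr had 149, 131 and 143 TPM in layer 2 and 165, 143 and 186 TPM in layer 3. At P3, Nptxr had 52.7, 42.5 and 45.3 TPM in layer 2 and 62.3, 88.2 and 66.5 TPM in layer 3. The lowest P7 library had 131 TPM and the highest P3 library 88.2 TPM (1.58 ± 0.15, adjusted p = 1.03e-05 in layer 2 and 1.18 ± 0.15, adjusted p = 0.00017 in layer 3), and both calls held whichever library was left out. The secreted pentraxins were far lower. Nptx1 ranged from 0.174 to 3.38 TPM and Nptx2 from 0 to 6.61 TPM, and neither was called. Nptx2 was listed at 0 in P3 layer 3 library 1. In layer 2 it had 1.57, 2.37 and 1.79 TPM in P7 layer 2, against 3.25, 6.61 and 5.32 TPM in P3 layer 2, with every P7 library below every P3 library, and did not pass the test (-1.03 ± 0.47, adjusted p = 0.134).

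Cerebellins are secreted ligands that bind neurexins on the axon and delta glutamate receptors on the dendrite. Cbln4 was low at P3. At P7, Cbln4 had 7.07, 4.79 and 8.30 TPM in layer 2 and 2.97, 6.67 and 27.2 TPM in layer 3. At P3, Cbln4 had 0.447, 2.65 and 1.57 TPM in layer 2 and 0, 0.772 and 0.992 TPM in layer 3. It was listed at 0 in P3 layer 3 library 1, and P7 layer 3 library 3 was far above the other libraries. The log2 fold change was 2.64 ± 0.58, adjusted p = 0.00609 in layer 3, where the ages did not overlap, and 1.67 ± 0.58 in layer 2, where the adjusted p was 0.0501, just over the threshold. The pseudocount lowers both fold changes because P3 values lie near it, and the counting error of such low values is unknown. Cbln2 was not called, and its P7 layer 3 libraries were spread widely, at 28.7, 6.15 and 8.82 TPM, with library 1, which stood apart by its oligodendrocyte transcripts, the highest. Cbln1 had group means of 8.06 to 13.7 TPM and was not called.

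The SynCAMs Cadm1, Cadm2 and Cadm3 are immunoglobulin proteins that bind each other across the cleft. All 3 were higher at P7 in layer 2 and 2 of 3 in layer 3. At P7, Cadm1 had 353, 293 and 271 TPM in layer 2 and 245, 295 and 349 TPM in layer 3. At P3, Cadm1 had 181, 175 and 243 TPM in layer 2 and 97.3, 161 and 110.3 TPM in layer 3. The 2 ages did not overlap in either layer (0.62 ± 0.19, adjusted p = 0.0332 in layer 2 and 1.28 ± 0.19, adjusted p = 0.000585 in layer 3). In layer 2 the call ended on omitting P7 layer 2 library 1 or 2 or P3 layer 2 library 1 or 2 (adjusted p 0.0604 to 0.134). At P7, Cadm2 had 144, 152 and 183 TPM in layer 2 and 163, 163 and 145 TPM in layer 3. At P3, Cadm2 had 74.4, 64.2 and 69.2 TPM in layer 2 and 78.9, 164 and 128 TPM in layer 3. The P3 layer 2 libraries were the lowest, together with P3 layer 3 library 1, and in layer 3 the ages overlapped (1.19 ± 0.20, adjusted p = 0.000923 in layer 2 and 0.40 ± 0.20, adjusted p = 0.186 in layer 3). At P7, Cadm3 had 26.7, 22.7 and 23.6 TPM in layer 2 and 27.7, 31.2 and 30.8 TPM in layer 3. At P3, Cadm3 had 11.1, 10.2 and 14.3 TPM in layer 2 and 14.1, 16.0 and 20.9 TPM in layer 3. Cadm3 rose in both layers with no overlap (0.99 ± 0.18, adjusted p = 0.00167 in layer 2 and 0.80 ± 0.18, adjusted p = 0.00836 in layer 3), and the layer 3 call was lost with quantile normalization (adjusted p = 0.0684).

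**Figure D4:**
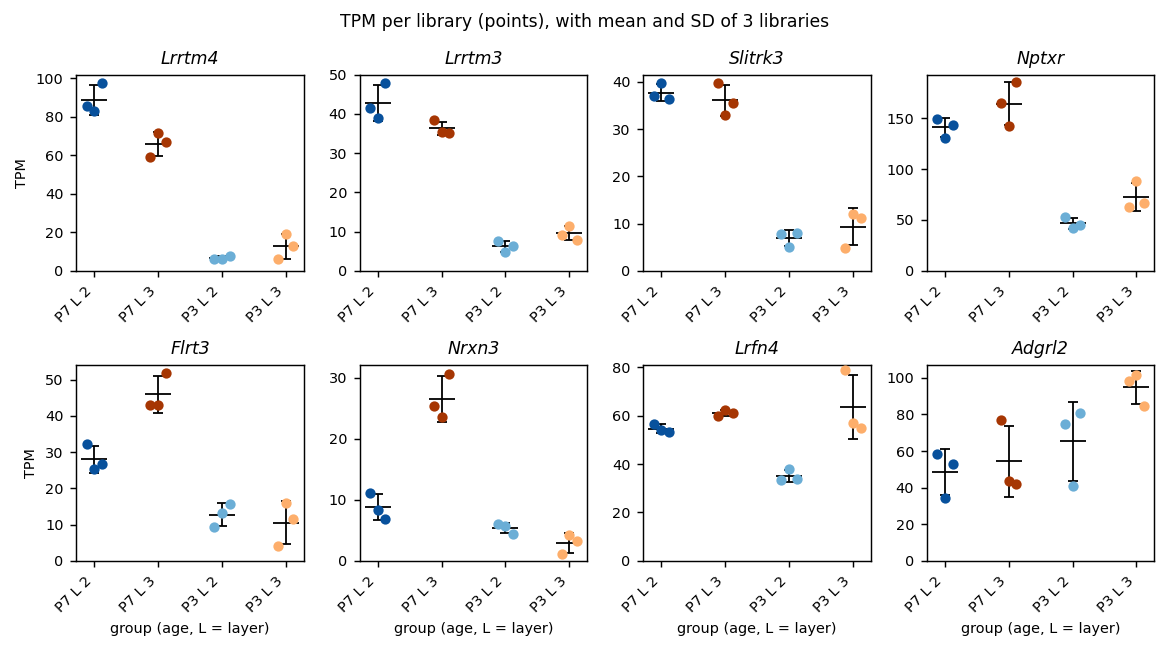
TPM of 8 genes in each library (points), with the mean and SD of 3 libraries per group (black bars), for P7 layer 2, P7 layer 3, P3 layer 2 and P3 layer 3 from left to right. Lrrtm4, Lrrtm3, Slitrk3 and Nptxr are high in both P7 groups, Nrxn3 in P7 layer 3, Lrfn4 is low in P3 layer 2, and Adgrl2 is highest in P3 layer 3.

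At P3, layer 2 libraries held less of several dendritic organizers than layer 3 libraries and more Cadm1. With limma, 1 of the 41 genes was higher in layer 2 and 7 were lower, where 4.87% of all genes were higher and 4.18% lower. The median log2 fold change, layer 2 over layer 3, was -0.32 for the 41 genes and 0.06 for all genes tested. Libraries did not overlap between the layers for 5 genes that were higher in layer 2, Nrxn3, Adgrl3, Tenm4, Nptx2 and Cadm1 (16.0% of all genes), and 13 that were lower (11.0%). Of the 7 lower genes, 4 were leucine-rich repeat organizers, Lrrtm1, Lrfn1, Lrfn3 and Lrfn4, and the others were Adgrl1, Nptxr and Cadm2. The P3 layer 2 libraries here also enter the age change in layer 2, so the lower level in P3 layer 2 and the age change in that layer rest in part on the same measurements.

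The clearest of these was Lrfn4, at 33.5, 37.8 and 33.6 TPM in P3 layer 2, against 78.7, 56.8 and 54.7 TPM in P3 layer 3 (log2 fold change -0.82 ± 0.14, adjusted p = 0.00356). Lrrtm1 differed by -0.78 ± 0.15, adjusted p = 0.00754. The Lrfn4 and Lrrtm1 calls held whichever library was left out. That of Lrrtm1 ended without the 3 libraries that stood apart (adjusted p = 0.0757) and with the 2 groups fitted alone (0.0560). Nptxr differed by -0.61 ± 0.15, adjusted p = 0.0241, and its call was lost on omitting P3 layer 2 library 2 or 3 (adjusted p 0.0771 to 0.0974). Lrfn3 differed by -0.70 ± 0.18, adjusted p = 0.0264, lost on omitting P3 layer 2 library 2 or 3 or P3 layer 3 library 1 (adjusted p 0.0783 to 0.0954). For these genes no P3 layer 2 library reached any P3 layer 3 library.

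Adgrl1 is a latrophilin that binds teneurins and FLRTs. At P7, Adgrl1 had 65.9, 51.7 and 59.8 TPM in layer 2 and 70.0, 65.2 and 60.2 TPM in layer 3. At P3, Adgrl1 had 52.0, 40.4 and 53.5 TPM in layer 2 and 79.0, 62.0 and 73.0 TPM in layer 3. P3 layer 2 was below P3 layer 3 in all libraries (-0.55 ± 0.15, adjusted p = 0.0366), with age changes of 0.28 ± 0.15, adjusted p = 0.191 in layer 2 and -0.12 ± 0.15, adjusted p = 0.594 in layer 3. The layer call was lost with quantile normalization (adjusted p = 0.0600) and on omitting P7 layer 2 library 3, P7 layer 3 library 2, any P3 layer 2 library or P3 layer 3 library 1 or 3 (adjusted p 0.0542 to 0.154). Lrfn1 differed by -0.54 ± 0.15, adjusted p = 0.0403, lost with quantile normalization (0.0523) and on omitting any 1 library other than P7 layer 2 library 2, P7 layer 3 library 1 or P3 layer 3 library 2 (adjusted p 0.0513 to 0.136).

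At P3, Cadm1 and Cadm2 differed between the layers in opposite directions, and for neither did the layers overlap. Cadm1 was higher in layer 2, at 181, 175 and 243 TPM against 97.3, 161 and 110.3 TPM in layer 3 (0.71 ± 0.19, adjusted p = 0.0369). Cadm2 was lower in layer 2, at 74.4, 64.2 and 69.2 TPM against 78.9, 164 and 128 TPM in layer 3 (-0.77 ± 0.20, adjusted p = 0.0327). Cadm1 made up 62.2 ± 5.33% of SynCAM TPM in P7 layer 2, 61.0 ± 5.21% in P7 layer 3, 70.8 ± 3.28% in P3 layer 2 and 46.9 ± 4.34% in P3 layer 3. The Cadm1 call was lost on omitting P7 layer 3 library 2, any P3 layer 2 library or P3 layer 3 library 1 or 3 (adjusted p 0.0528 to 0.143). The Cadm2 call was lost on omitting any P3 layer 2 library or P3 layer 3 library 2 or 3 (adjusted p 0.0555 to 0.118).

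The number of P3 layer calls moved widely. Omitting P3 layer 2 library 1 gave 4 calls (6.99% of all genes). Omitting library 2 gave 2 (3.78%) and omitting library 3 gave 2 (5.18%). Omitting P3 layer 3 library 3 gave 4 (5.68%), and omitting P7 layer 3 library 2 gave 5 (7.58%). Without the 3 libraries that stood apart there were 4 (3.47%). There were 13 calls with median-ratio scaling (10.6% of all genes), 18 with array weights (29.6%) and 4 with no filter (3.68%). With the 2 groups fitted alone there was 1, Lrfn4 (5.31%). The fit reported here gave 8 calls, and 9.05% of all genes. Markers of other cells also differed between these groups. All 8 cell cycle genes (median 1.65) and all 7 radial glia and progenitor genes tested (median 1.97) were higher in P3 layer 2, as were 6 of 12 astrocyte genes (1.74), 2 of 10 oligodendrocyte lineage genes (1.52) and 3 of 10 interneuron genes (0.88). Summed progenitor markers were 4032 to 6804 TPM in P3 layer 2, against 722 to 1803 TPM in P3 layer 3. Of the 10 projection neuron genes 6 were lower in P3 layer 2 (median -0.59). Of the 8 pan-neuronal genes 3 were lower in P3 layer 2 (median -0.45), with sums of 2882 to 3888 TPM there, against 4521 to 5073 TPM in P3 layer 3. With the astrocyte score as a covariate 0 of the 41 genes and 219 of all 17606 were called, and with the pan-neuronal score 0 and 13. At an unadjusted p under 0.05 these limma fits gave 14 and 10 of the 41 genes. With the astrocyte score the fold changes were -0.73 for Lrfn4, -0.69 for Lrrtm1, 0.77 for Cadm1 and -1.04 for Cadm2, with a median of -0.34 over the 41 genes. With the pan-neuronal score they were -1.09, -0.50, 1.20 and -0.34 for the same genes, with a median of 0.24. The pan-neuronal sums did not overlap between these groups. Nor did the astrocyte sums, at 760 to 851 TPM in P3 layer 2, against 176 to 462 TPM in P3 layer 3. The scores are means of log2(TPM + 1) and not sums, so how far either fit separates its score from the layer is not known. The part of other cell types in the layer calls was not tested beyond these values.

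**Figure D5:**
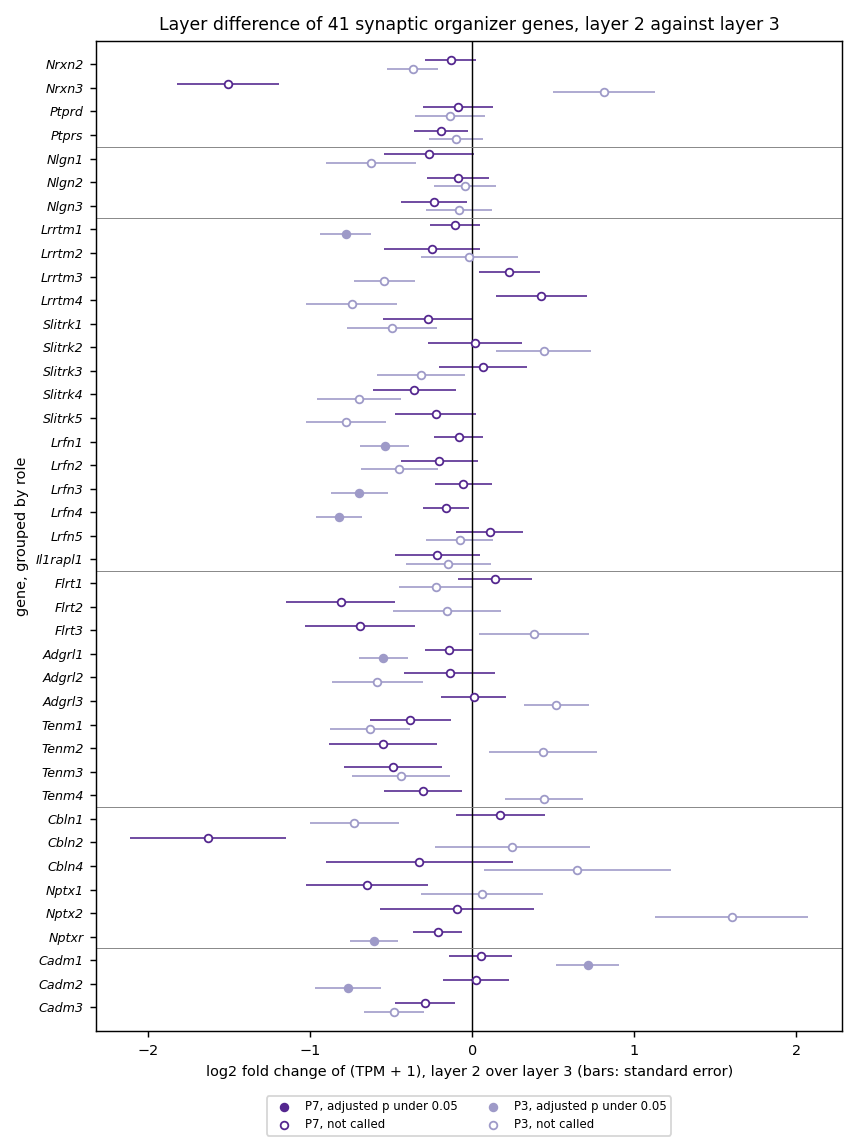
Fitted log2 fold change of TPM + 1, layer 2 over layer 3, for each of the 41 genes by role, with bars of 1 standard error; dark purple is P7 and light purple is P3, and filled points passed an adjusted p of 0.05. The filled points are all at P3, with Cadm1 (0.71) right of 0 and 7 genes left of it, and Nrxn3 at P7 lies at -1.51.

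At P7 none of the 41 genes passed the test between the layers with limma, where 0.500% of all genes did. At an unadjusted p under 0.05, 3 of the 41 differed, Nrxn3, Flrt2 and Cbln2, against 9.92% of all genes. The median log2 fold change was -0.19 for the 41 genes and -0.04 for all genes tested. Libraries did not overlap for 3 genes higher in layer 2, Lrrtm3, Lrrtm4 and Flrt1 (8.14% of all genes), and 13 lower (11.9%). Nrxn3 came closest to the threshold, with 11.1, 8.31 and 6.94 TPM in P7 layer 2 against 25.4, 23.6 and 30.7 TPM in P7 layer 3 (-1.51 ± 0.31, adjusted p = 0.0558). It passed with a pseudocount of 5 (adjusted p = 0.0101), with quantile normalization (0.0457), with the 2 groups fitted alone (0.0252), with array weights (0.00576), without P3 layer 3 library 1 (0.0104) or library 2 (0.0363), and without the 3 libraries that stood apart (0.0333). The range over all settings was 0.00576 to 0.238. At P3 the order was the other way, with every layer 2 library above every layer 3 library (0.81 ± 0.31, adjusted p = 0.126).

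Beyond the 41 genes, 62 other genes of synaptic adhesion and of the receptors and modulators around these proteins were listed, of which 55 were tested. At P7, 22 of the 55 were higher and 1 was lower in layer 2 (median 0.55), and 28 were higher and 2 lower in layer 3 (median 0.67). Of all genes, 15.0% were higher and 9.33% lower in layer 2, and 14.4% and 6.42% in layer 3. The 20 partners and regulators of the members had 3 higher in layer 2 (15%, median 0.16) and 8 in layer 3 (40%, median 0.57). The 35 genes of other adhesion families had 19 higher in layer 2 (54.3%, median 0.87) and 20 in layer 3 (57.1%, median 0.85). Tafa1, a secreted protein that binds neurexins, had 119.9, 105 and 124 TPM in P7 layer 2, against 14.5, 10.3 and 23.3 TPM in P3 layer 2 (log2 fold change 2.85 ± 0.24, adjusted p = 4.67e-06). The 2 ages did not overlap. Lgi1, secreted and bound by ADAM22, had 25.5, 13.4 and 25.8 TPM in P7 layer 2, against 3.14, 2.62 and 5.004 TPM in P3 layer 2. It had 28.5, 31.0 and 27.9 TPM in P7 layer 3, against 2.86, 4.39 and 2.72 TPM in P3 layer 3. It rose in both layers (2.28 ± 0.28, adjusted p = 8.00e-05 in layer 2 and 2.82 ± 0.28, adjusted p = 2.93e-05 in layer 3). Its relative Lgi3 rose as well (2.65 ± 0.27, adjusted p = 1.95e-05 in layer 2 and 2.48 ± 0.27, adjusted p = 6.11e-05 in layer 3), and so did the contactin Cntn3 in layer 3 (2.43 ± 0.29, adjusted p = 0.000117).

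The genes of this list that were lower at P7 were the secreted C1ql1 in layer 2 and Unc5c and Ntng2 in layer 3. C1ql1, a C1q-like synaptic organizer also made by oligodendrocyte precursors, had 6.68, 11.7 and 6.16 TPM in P7 layer 2, against 23.3, 33.3 and 32.7 TPM in P3 layer 2 (-1.78 ± 0.42, adjusted p = 0.00770), with no overlap. Unc5c, a netrin receptor, had a log2 fold change of -1.14 ± 0.24, adjusted p = 0.00494, and Ntng2, a netrin-G protein anchored to the axon, one of -1.13 ± 0.28, adjusted p = 0.0127. Between the layers at P3, 2 of the 55 were higher in layer 2 and 11 were lower, where 4.87% and 4.18% of all genes were. C1ql1 (1.65 ± 0.42, adjusted p = 0.0283) and the glypican Gpc4 (1.57 ± 0.39, adjusted p = 0.0257), a heparan sulfate partner of Lrrtm4, were the 2 higher ones. Cntn6, a contactin, had 8.51, 8.11 and 7.22 TPM in P3 layer 2, against 14.2, 32.4 and 34.5 TPM in P3 layer 3 (-1.55 ± 0.29, adjusted p = 0.00545). Adam11, a membrane protein related to ADAM22 (-1.34 ± 0.18, adjusted p = 0.000885) and Ntng2 (-1.28 ± 0.28, adjusted p = 0.0140) were lower in layer 2 as well. At P7, 1 of the 55 was called between the layers, where 0.500% of all genes were. It was Igsf21, a binding partner of neurexin at inhibitory synapses, with 28.5, 26.8 and 23.2 TPM in P7 layer 2 against 52.4, 42.4 and 56.6 TPM in P7 layer 3 (-0.92 ± 0.17, adjusted p = 0.0332).

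Of the 41 genes, 29 were called in at least 1 comparison and 12 in none. The share of all genes called in at least 1 comparison was not computed. It cannot be below the 24.3% called with age in layer 2. The 12 were Nlgn2, Slitrk2, Lrfn2, Flrt1, Adgrl3, Tenm1, Tenm2, Tenm3, Cbln1, Cbln2, Nptx1 and Nptx2. Read sharing limits some levels, because no source used here gives the strand setting of the counting. In GENCODE vM21, 17 of the 41 genes share exon bases with another gene and 4 share at least 10% of them. These are Nlgn3 with Gm21986 (41.2%), Lrrtm4 with the antisense Gm4409 (25.1%), Nptxr with Npcd (17.2%) and Adgrl1 with Gm10644 (12.9%). Gm4409 and Npcd were listed at 0 in every library, and Gm21986 and Gm10644 at up to 0.452 and 1.02 TPM, so reads of these overlaps cannot be assigned with certainty. Smaller overlaps had partners at higher levels. Cadm3 shares 4.98% of its exon bases with Ackr1 on the same strand (up to 57.4 TPM), Lrrtm2 shares 1.58% with the opposite-strand Ctnna1 (up to 30.7 TPM) and Nrxn2 shares 1.5% with the antisense Gm14964 (up to 45.6 TPM).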

How the data were processed

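RNA was measured in 12 libraries of mCherry-sorted layer 2 or layer 3 neurons. Per the labels' protocols the kits were the RNeasy mini kit for RNA and, for libraries, a SMART-Seq mRNA LP kit. The submitters' processing notes name GRCm39, HISAT2, StringTie and featureCounts without versions. The deposited values are TPM computed by the authors. Each library sums to 1000000 TPM, so depth, and the precision it gives, is unknown.

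Here log2(TPM + 1) entered limma-trend (limma 3.58.1, R 4.3.3) with a mean for each group and 8 residual degrees of freedom. The 17606 genes that reached 1 TPM in 3 or more libraries were tested in 5 comparisons, with Benjamini-Hochberg adjustment over all of them and calls at an adjusted p under 0.05. The age comparisons, the layer comparisons and their difference share libraries. The fit was tested on simulated data. The 41 genes, their roles and the other lists were chosen with earlier results of these data known. All genes of the list are accounted for, and those called in any comparison are given with each library's TPM. Of the other adhesion genes, up to 3 called genes in each direction per comparison are named by size of change. In 24 other settings the pseudocount was 0.1 or 5, the filter was dropped or set to 5 TPM, values were rescaled by median ratios or quantiles, array weights or a replicate block were added, the compared groups were fitted alone, or a library was omitted. Among them, a fit without 3 libraries and fits with a pan-neuronal or an astrocyte score were added after seeing the data.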

Additional observations from a re-analysis of the deposited data

Results flagged for a closer look

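In 3 genes the layers were fully apart at both ages but in opposite order. The share of all genes with such a reversal was not computed. Taken 1 age at a time, layer 2 lay wholly above layer 3 for 8.14% of all genes at P7 and 16.0% at P3. It lay wholly below for 11.9% and 11.0%. For Nrxn3, every layer 2 library lay below every layer 3 library at P7 and above at P3, and its age changes differed by -2.32 on the log2 scale, layer 2 minus layer 3 (limma adjusted p = 0.0621). Lrrtm3 was above layer 3 at P7 and below it at P3, with a difference between the age changes of 0.77 (adjusted p = 0.276). Tenm4 was below layer 3 at P7 and above it at P3, with a difference of -0.75 (adjusted p = 0.427). None of the 3 differences passed an adjusted p of 0.05, and no other gene of the 41 showed this reversal. Their causes were not tested.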

How the results depend on the processing

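Called changes kept their direction under every setting except the added pan-neuronal covariate. Over 24 settings, 1076 of 1295 values for the 54 single-gene results kept both direction and side of the threshold, 198 no longer passed, 11 newly passed and 10 changed sign. All 10 sign changes came with the pan-neuronal covariate. In layer 2 with age they were Cadm1 (-0.28), Lrfn5 (-0.33), Lrrtm2 (-0.69), Nlgn3 (-0.55), Ptprd (-0.44), Ptprs (-0.15), Slitrk1 (-0.67), Slitrk4 (-0.011) and Slitrk5 (-0.31), and in layer 3 Lrfn5 (-0.029). With that covariate the calls among the 41 genes were 0 with age in layer 2, 0 with age in layer 3 and 0 between the layers at P3, where 6, 9 and 10 of the 41 genes had an unadjusted limma p under 0.05. Pan-neuronal sums did not overlap between the groups in any of these comparisons. The covariate was the mean log2(TPM + 1) of the pan-neuronal genes and not their sum. How far it can be separated from age or layer is therefore not known. The cause was not tested.

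Between the layers at P3 the 8 calls became 4 with no filter, 13 with median-ratio scaling, 1 with the 2 groups fitted alone, 18 with array weights, 4 without the 3 libraries that stood apart and 0 with the astrocyte covariate. With that covariate 219 of all 17606 genes were called, against 1593 in the fit reported, and the fold changes of the 8 genes kept their sign, with -0.73 for Lrfn4 and 0.77 for Cadm1. Astrocyte sums did not overlap between these groups, so how far that covariate can be separated from the layer is not known. Array weights called 29.6% of all genes, against 9.05%. Between the layers at P7 the 0 calls became 1, Nrxn3, with a pseudocount of 5, quantile normalization, the groups alone, array weights and the 3 libraries left out, and 1, Cbln2, with the astrocyte covariate. The difference between the age changes gave 1 call, Nrxn3, with a pseudocount of 5 and with median-ratio scaling. It gave 6 with array weights, where 6.26% of all genes were called. Fitting compared groups alone gives no value for it. That setting ended the layer 3 age calls of Nlgn1, Nrxn2, Ptprs, Slitrk4 and Tenm4 (limma adjusted p 0.0603 to 0.115). Dropping the filter ended those of Adgrl2, Nrxn2 and Slitrk4 in layer 3 and of Cadm1 and Flrt3 in layer 2 (limma adjusted p 0.0532 to 0.0850). When single libraries were left out, calls ranged from 16 to 24 with age in layer 2, 15 to 25 with age in layer 3, 0 to 1 between the layers at P7, 2 to 10 at P3 and 0 to 1 for the difference, where the call was Lrrtm4 without P3 layer 3 replicate 1 and Nrxn3 without P3 layer 3 replicate 2. With age in layer 2, 16.1% of all genes were called alongside the 16 and 23.9% to 27.5% alongside the 24. With age in layer 3, 13% were called alongside the 15 and 29.9% alongside the 25. Between the layers at P3, 3.78% or 5.18% were called alongside the 2 and 11.3% alongside the 10.

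The libraries carry replicate numbers 1 to 3 in each group, and the labels do not say that a number is shared. For that reason the numbers were not taken as pairs. Over 18 same-number pairs the correlation of deviations from group means ran from -0.19 to 0.21, with 5 over 0.1. Pairs with different numbers ran from -0.27 to 0.28. Of the 12 libraries, 7 were closest to a library of their own number. These values do not settle whether the numbers were shared. With a replicate block the calls were 24 with age in layer 2 (23.2% of all genes) and 20 in layer 3 (18.9%). There were 0 between the layers at P7, 8 at P3 (8.66%) and 0 for the difference. Slitrk4 in layer 3 was the call that the block ended (adjusted p = 0.0642). TPM without depth sets a limit on low genes such as Nptx1, Nptx2 and Cbln4, whose counting error is unknown.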
